A study of Mus musculus with 4 samples.

Results

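The TFEB family and mTORC1 nutrient sensing genes were 10 mouse genes taken by name from the GENCODE vM21 annotation, of 21938 protein-coding genes on the chromosomes analysed. They comprised the transcription factor genes Tfeb, Tfe3 and Mitf, the mTORC1 subunit genes Mtor and Rptor, the GTPase genes Rraga and Rragc, and the regulator genes Lamtor1, Flcn and Tsc2. The list was made by name with no limit on any measured value, but with earlier results of these data known, and a gene without a peak remained in it. Methylated Pontin occupancy was measured by ChIP-seq in wild-type mouse embryonic fibroblasts (MEFs) with an antibody against Pontin methylated at arginines. The study had 4 unreplicated libraries, since a ChIP library and an input library were made for each of the 2 conditions, normal media and glucose starvation. All values below came from the authors' list of 4311 peaks in the starved ChIP library, and the ChIP in normal media was not analysed here. No difference between the conditions and no spread between cultures can therefore be given, and the number of embryos or cultures and the hours of starvation of this library were not given in the sources used here.

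mTORC1 is a kinase complex that works at the lysosome surface and couples growth to nutrients. Amino acids load the Rag GTPases, which dock mTORC1 on the lysosome through the Ragulator complex, while the TSC complex turns off Rheb, the GTPase that activates the kinase. When nutrients are plentiful, mTORC1 holds TFEB, TFE3 and MITF in the cytoplasm by phosphorylation, and on starvation these factors enter the nucleus and bind the CLEAR motif of lysosomal and autophagy genes.

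A promoter peak was a peak whose centre lay within 2.5 kb of an annotated transcription start site (TSS) of the gene. Methylated Pontin had a promoter peak at 6 of the 10 genes, namely Mtor, Rptor, Flcn, Rraga, Rragc and Tsc2. Of all protein-coding genes, 17.1% (3747 of 21938) had one. None of the 3 transcription factor genes had a promoter peak, and of the other 7 genes only Lamtor1 lacked one. With 1 library no test was run, and these shares are descriptions of a list that was not chosen blind to the data.

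The sequences under 3 of these peaks are printed first to show their base composition. They are the 200 bp around the peak centre in the GRCm38 assembly, and none of these bases is annotated as an exon. They are in lower case throughout, since no searched motif lay in them.
Flcn, chr11:59810402-59810601, plus strand: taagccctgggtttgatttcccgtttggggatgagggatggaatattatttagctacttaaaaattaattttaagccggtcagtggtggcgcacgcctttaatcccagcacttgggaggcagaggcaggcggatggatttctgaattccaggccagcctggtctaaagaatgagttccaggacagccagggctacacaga
Rraga, chr4:86575413-86575612, plus strand: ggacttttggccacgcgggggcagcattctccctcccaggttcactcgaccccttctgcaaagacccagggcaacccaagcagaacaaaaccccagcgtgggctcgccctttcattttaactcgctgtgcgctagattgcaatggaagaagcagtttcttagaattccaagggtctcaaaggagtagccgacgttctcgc
Rragc, chr4:123916887-123917086, plus strand: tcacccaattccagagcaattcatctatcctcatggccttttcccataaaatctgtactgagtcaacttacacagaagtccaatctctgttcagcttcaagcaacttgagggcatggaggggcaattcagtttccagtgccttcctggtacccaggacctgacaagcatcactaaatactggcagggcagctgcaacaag
The GC content was 47.5% in the Rragc stretch, 49.0% in the Flcn stretch and 55.0% in the Rraga stretch. The Rraga stretch held 10 CpG dinucleotides, the Flcn stretch held 5, and the Rragc stretch held 0. The Flcn peak as a whole was 72.8% soft-masked as repeats in the assembly, so its stretch need not show the composition of the promoter. The stretches of Rptor and Tsc2 lay wholly in exons and are not shown, and they had GC contents of 69.5% and 52.5%.

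Peak signal is given in normalised tags, which are tags in the peak per 10000000 tags of the library as scaled by the authors. Each value is given with an approximate Poisson 95% interval of the tags behind it, which covers counting error only. It is also given with the percent of all peaks that had a lower signal. The median over all peaks was 14.2 normalised tags, with an interquartile range from 12.0 to 17.3. The percent of peaks with a lower signal is printed without an interval, but it carries the counting error of the signal. The intervals of Mtor, Rptor, Rragc and Tsc2 below each span this whole interquartile range. The rank of a single peak is therefore loose, and its digits describe the list only.

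Mtor, at chr4:148448611-148557683 on the plus strand, encodes the kinase itself. Its peak at chr4:148447867-148448347 had 15.9 normalised tags (10.9 to 22.3; 33.0 tags), above 62.9% of all peaks. The centre lay 504 bp upstream of the first TSS in intergenic sequence, with no other gene's TSS within 2.5 kb. The peak was 4.31-fold over the surrounding 10 kb, above 18.9% of all peaks. The authors' ratio over input was 41.1 for Mtor, but the signal divided by this ratio gives an input level of only 0.387 normalised tags, against a median of 1.55 over all peaks. This was the lowest step of the input levels in the list, from 0.367 up, which 489 peaks (11.3%) shared, and the next step began at 0.734. The ratio of Mtor was thus taken against almost no input, and neither its size nor its rank can be read as a measured enrichment.

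Rptor, at chr11:119602905-119899576 on the plus strand, encodes Raptor, the subunit that recruits substrates. Its peak at chr11:119602946-119603426 had 16.6 normalised tags (11.5 to 23.1; 34.5 tags), above 69.2% of all peaks. It was the one promoter peak of the set that was centred downstream of the first TSS, by 281 bp, in an untranslated exon of Rptor and 37 bp from the TSS of the transcript Rptor-201. It had the lowest fold over input of the 6, 6.14-fold, and was 5.44-fold over the surrounding 10 kb. Its GC content, 67.6% over the whole peak, was the highest of the 6.

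Rraga and Rragc encode RagA and RagC, GTPases of opposite classes that pair with each other to carry the amino acid signal. The Rraga peak, at chr4:86575272-86575752, had 17.8 normalised tags (12.5 to 24.5; 37.0 tags), above 77.2% of all peaks. It was centred 156 bp upstream of the single TSS of this gene (chr4:86575668-86577285, plus strand), and was the only promoter peak of the set to cover the first TSS. It was 11.5-fold over input and 5.83-fold over the surrounding 10 kb, the highest local fold of the 6. The Rragc peak, at chr4:123916746-123917226, had 15.9 normalised tags (10.9 to 22.3; 33.0 tags), 8.22-fold over input and 4.25-fold over the surrounding 10 kb. Its centre lay 460 bp upstream of the first TSS of Rragc (chr4:123917446-123936997, plus strand), within an intron of the antisense gene Gm12905, whose TSS was nearer at 283 bp. The TSS of the protein-coding gene 4930535I16Rik, on the opposite strand, was 1036 bp away. Rraga and Rragc thus both had a promoter peak by distance, and the intervals of the peaks overlapped. The Rragc peak was nearer to the Gm12905 TSS, so it cannot be assigned to either gene from its position.

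Flcn, at chr11:59791408-59810016 on the minus strand, encodes folliculin, which acts on the nucleotide state of RagC. It had the highest signal of the set, 19.5 normalised tags (14.0 to 26.5; 40.5 tags) at chr11:59810261-59810741, above 86.3% of all peaks. The peak was 8.41-fold over input and 5.04-fold over the surrounding 10 kb. It was centred 485 bp upstream of the first TSS, in an intron of the antisense gene Gm16062, whose TSS was nearer at 421 bp. The Flcn peak therefore cannot be assigned to either gene from its position. Of the bases of this peak, 72.8% were soft-masked as repeats in the assembly, against a median of 8.73% over all peaks. Of its 32-base words, 29.1% occurred elsewhere in the genome. Only 4.41% of all peaks were more than 50% soft-masked. The Rptor, Rraga, Rragc and Tsc2 peaks were 0% soft-masked and held no repeated word, while Mtor was 27.9% soft-masked. The part of repeats in the Flcn signal was not tested.

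Tsc2, at chr17:24595816-24632630 on the minus strand, encodes tuberin, the subunit of the TSC complex that switches off Rheb. Its peak at chr17:24632799-24633279 had 16.9 normalised tags (11.8 to 23.5; 35.1 tags), above 71.0% of all peaks. It was 7.27-fold over input and 5.68-fold over the surrounding 10 kb. The centre lay 409 bp upstream of the first TSS of Tsc2 and in an untranslated exon of Nthl1, a DNA repair gene transcribed the other way from a TSS 320 bp from the centre. The peak was nearer to the Nthl1 TSS than to that of Tsc2, so it cannot be assigned to either gene from its position.

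**Figure D1:**
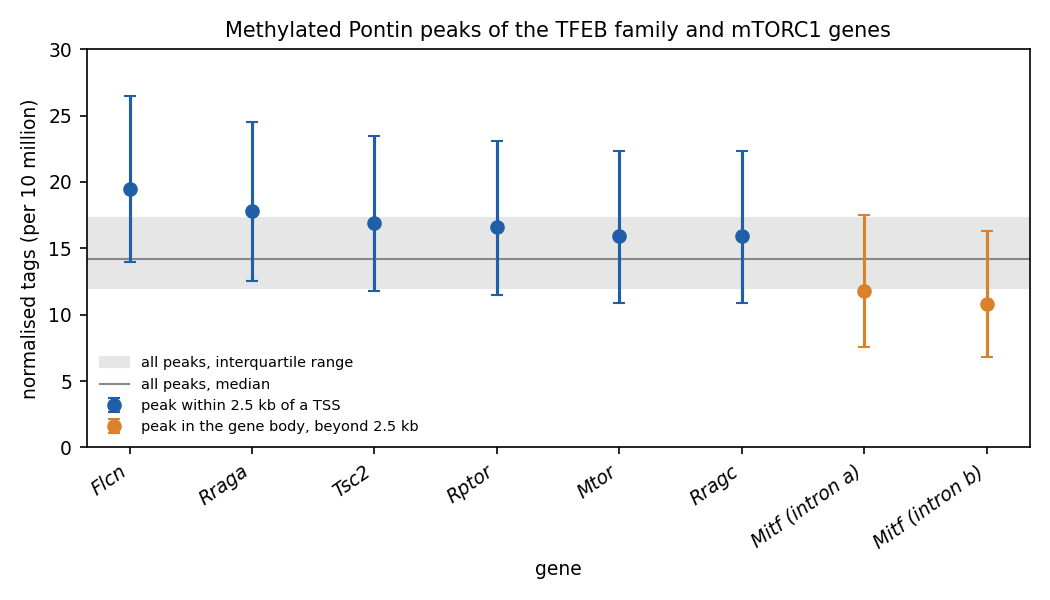
Signal of the methylated Pontin peaks of the TFEB family and mTORC1 genes in the starved ChIP library, in normalised tags. Approximate Poisson 95% intervals are bars, and the median and interquartile range of all peaks are a line and a band. The 6 promoter peaks sit between 15.9 and 19.5 with overlapping intervals, and both Mitf intron peaks lie below the median of 14.2. Every interval covers that median.

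All 6 signals were above the median of all peaks, and their median was 16.8 normalised tags, beside 14.7 for the 3382 promoter peaks of the list. Each of the 6 intervals covered the median of all peaks, 14.2, so no single signal stood above it beyond counting error. They differed little among themselves. The highest was 1.23 times the lowest, all 6 intervals overlapped, and no order among the 6 genes can be read beyond counting error. Their median fold over input was 8.32, beside 8.81 over all peaks, and their median local fold was 5.24, beside 4.93.

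**Figure D2:**
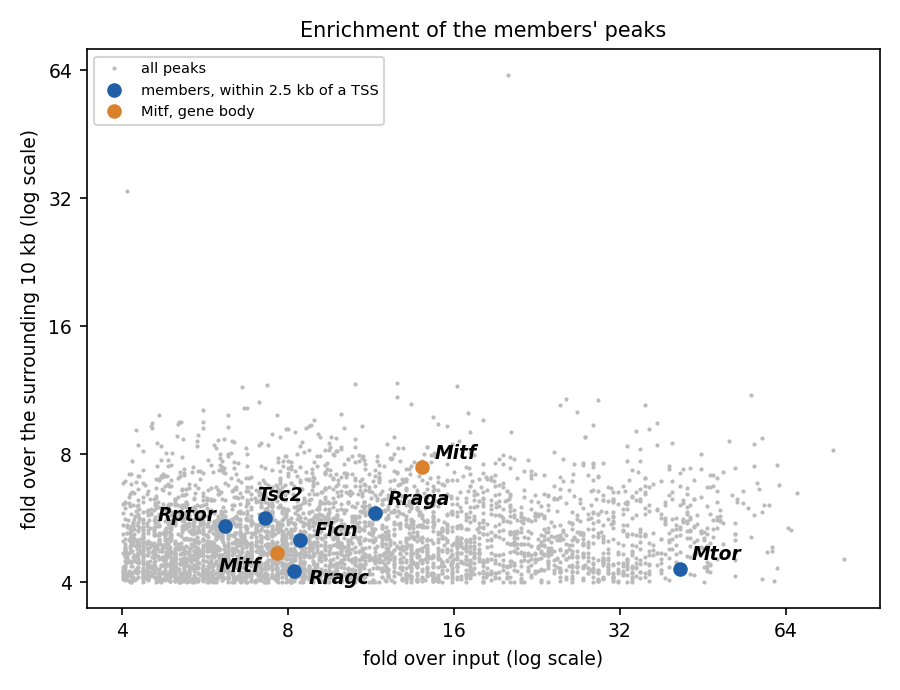
Fold over input against fold over the surrounding 10 kb for all 4311 peaks (grey) and the peaks of the set (blue within 2.5 kb of a TSS, orange in the body of Mitf), with log scales on both axes. Mtor is plotted at the authors' ratio of 41.1, which rests on an input of 0.387 normalised tags and whose size cannot be read, and the other promoter peaks lie between 6.14-fold and 11.5-fold over input.

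The position of the peaks was also alike. In 5 of the 6 genes the centre lay upstream of the first TSS, by 156 to 504 bp, and Rptor was the exception. Among all protein-coding genes with a promoter peak, 45.2% had it upstream of the first TSS. The peak lay within 2.5 kb of a TSS of another protein-coding gene in 2 of the 6 (Rragc and Tsc2), against 31.1% of such genes. The remaining 4 had no other protein-coding TSS in reach, although Flcn had an antisense one. The peaks of Tsc2, Rragc and Flcn were each nearer to a TSS of another gene.

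**Figure D3:**
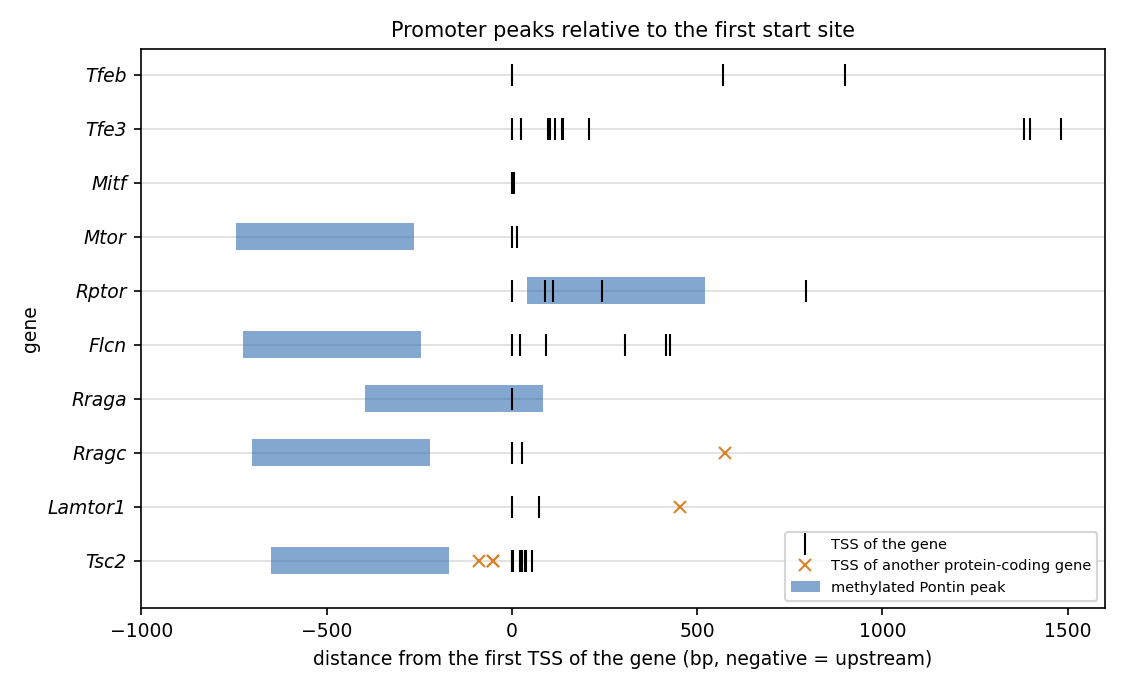
Promoter peaks (blue bars, 481 bp) of the set relative to the first TSS of each gene, in bp with upstream to the left, with the TSSs of the gene as black ticks and those of other protein-coding genes as orange crosses. The bars of Mtor, Flcn, Rragc and Tsc2 end short of the first TSS, that of Rraga covers it, that of Rptor begins 41 bp after it, and Tfeb, Tfe3, Mitf and Lamtor1 have none.

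Promoters rich in GC carried peaks more often in this list, so the members were also placed by the GC content of the 500 bp either side of the first TSS. All protein-coding genes were split by this measure into 4 groups of about equal size. In the third group (54.7% to 60.9% GC) 23.8% of genes had a promoter peak, and in the highest group 24.5% had one. Of the 10 genes, 8 fell in the third group, and 4 of these 8 had a promoter peak (Mtor, Flcn, Rraga and Tsc2). Rragc, with 68.7% GC, was in the highest group and Rptor, with 51.7%, in the second, where 15.9% of genes had a peak. All 4 genes without a promoter peak were in the third group, with GC contents from 56.0% in Mitf to 58.8% in Tfe3 and Lamtor1, which was within the range of the bound genes. Over all protein-coding genes weighted to the same makeup of GC groups, the share with a promoter peak was 23.1%, beside the 6 of 10 members. Over the peaks themselves the median GC content was 55.1%, beside 55.9% over all promoter peaks, and it ran from 44.9% in Mtor to 67.6% in Rptor.

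The transcription factor genes differed from each other in how far the nearest peak was. Tfeb (chr17:47737030-47792419, plus strand) encodes the factor for which the family is best known, and its nearest peak lay 212 kb downstream of the nearest of its 14 annotated TSSs. That peak had 16.6 normalised tags and was 1921 bp from the pseudogene Gm14871. No peak lay within 100 kb of Tfeb, and 67.1% of protein-coding genes had a nearer peak. Tfe3 (chrX:7762560-7775202, plus strand), which binds the same sites, had its nearest peak 20.4 kb downstream, and this peak of 12.0 normalised tags sat 68 bp from the TSS of the neighbouring gene Gripap1. The list holds only regions past the authors' limits, which were a tag threshold of 18, 4-fold over both the input and the local background, and a p-value of 0.0001. A weaker signal at these genes would not be seen.

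Mitf (chr6:97807052-98021349, plus strand), the family member known from pigment cells, had no promoter peak but had 2 peaks in introns. One at chr6:97870783-97871263 had 11.8 normalised tags (7.6 to 17.5; 24.5 tags), above 22.5% of all peaks. It lay 64.0 kb into the gene, 58.8 kb upstream of the nearest TSS, and its score of 18 was at the authors' tag threshold, a lowest score that it shared with other peaks (139 in all, 3.22% of the list). It was 7.63-fold over input, was 50.7% soft-masked, and had 26.7% of its 32-base words repeated elsewhere. The other at chr6:97997402-97997882 had 10.8 normalised tags (6.8 to 16.3; 22.4 tags), above 12.4% of all peaks. It lay 191 kb into the gene and 5.72 kb downstream of the TSS of Mitf-208, a start in the 3′ part of the gene. It was 14.0-fold over input and 7.48-fold over the surrounding 10 kb, a local fold above that of 95.2% of all peaks. The ratio over input rested on a low input of 0.77 normalised tags, beside the median of 1.55 over all peaks, and its size is loose. Both Mitf signals were lower than all 6 promoter signals of the set, and their intervals overlapped all of those. A peak in the gene body beyond 2.5 kb of any TSS was present in 2.25% of all protein-coding genes and in 13.1% of genes of 200 kb or more, a class to which Mitf, at 214 kb, and Rptor, at 297 kb, belong. Of the 10 genes Mitf was the one that had such a peak, and Rptor had none.

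**Figure D4:**
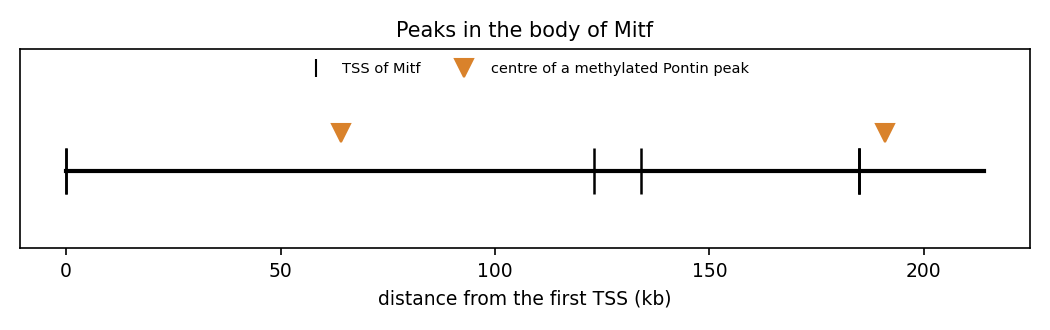
The Mitf gene as a line in kb from its first TSS, with its TSSs as ticks and the centres of its 2 methylated Pontin peaks as triangles. The peaks lie at 64.0 and 191 kb, away from the starts at 0, 123, 134 and 185 kb.

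Lamtor1 (chr7:101905904-101926675, plus strand) encodes the Ragulator subunit that anchors the complex in the lysosomal membrane, and it had no peak. The nearest one, of 11.3 normalised tags, was 8.95 kb upstream and 2 bp from the TSS of Anapc15, a subunit gene of the anaphase-promoting complex. It was 4.04-fold over the surrounding 10 kb, just above the authors' limit. The nearest peaks of both Tfe3 and Lamtor1 were thus promoter peaks of neighbouring genes.

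Letters of known motifs were searched on both strands as exact matches, which are descriptions of sequence and not of binding. They were TCACGTG and its core CACGTG (the CLEAR motif, bound by the TFEB family), GTAAACA (FOXO3a), TGACGTC (CREB1) and GCGGGAA (E2F1). The sequences with a match are shown for the 3 promoter peaks that had one, and for 2 promoters where a CLEAR match lay outside any peak, with the match in capitals and 10 bases on either side, read on the plus strand of GRCm38.
Tsc2 peak, chr17:24632997-24633023, plus strand: cgcttaaatcTCACGTGgccccacttc
Rragc peak, chr4:123916825-123916850, plus strand: ttgcctttcgCACGTGccgaatctat
Rraga peak, chr4:86575659-86575685, plus strand: cgagatgccgGCGGGAAgtgggtggcg
Rragc promoter, chr4:123917311-123917337, plus strand: tgattccgggCACGTGAtagtaccact
Lamtor1 promoter, chr7:101905758-101905784, plus strand: tgccttcctaTCACGTGccgcgggtcc

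TCACGTG lay in 1 of the 6 promoter peaks, that of Tsc2, centred 380 bp upstream of its nearest TSS, and 5.73% of all peaks held it. The core CACGTG, which overlaps the longer motif, lay in the Tsc2 and Rragc peaks, 2 of 6, against 11.5% of all peaks. GCGGGAA lay in the Rraga peak, centred 4 bp from the TSS, and in 9.26% of all peaks. GTAAACA and TGACGTC lay in 0 of the 6 promoter peaks, against 5.08% and 3.71% of all peaks. Among only the promoter peaks of the list, the shares were 6.33% for TCACGTG, 12.1% for CACGTG and 11.1% for GCGGGAA. They were 4.46% for GTAAACA and 4.29% for TGACGTC. Neither Mitf peak held any of the 5.

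The 300-bp promoter windows of RefSeq (250 bases before to 50 after each start, GRCm38.p6) were searched as well, and all 10 genes matched, with 15 windows. TCACGTG was present in 3.77% of the 32851 windows of all genes, and CACGTG in 7.15%. Among the members, Rragc and Lamtor1 held TCACGTG in a window. In Rragc the match was centred 122 bp upstream of the TSS and 95 bp beyond the edge of the peak, so that this gene had a core match inside the peak and a full match outside it. In Lamtor1 it was centred 133 bp upstream of the TSS, and this gene had no peak. Flcn and Mitf each held TGACGTC within the palindrome TGACGTCA, so that it matched on both strands, and 3.21% of all windows held it. In Flcn the word was centred 68 bp upstream of the nearest TSS and lay outside the peak, and in Mitf it lay at a window near 185 kb. Tfeb and Rraga held GCGGGAA, which was in 4.6% of all windows, and GTAAACA, in 3.65% of all windows, was in none of the 15.

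To place the set in its pathway, promoter peaks were counted over 61 genes of mTORC1 and its neighbours, a list that includes the 10. Of these, 18 (29.5%) had a promoter peak, and 12 of the 51 (23.5%) without the members had one, beside the 17.1% of all genes. Weighted to the GC groups of the lists, the share of all genes was 21.2% for the 61 and 20.8% for the 51, so the genes beside the members were near it. In the third and highest GC groups, 29.2% (7 of 24) and 23.8% (5 of 21) of the list had a promoter peak, beside 23.8% and 24.5% of all genes. The list was further from all genes in the groups of lower GC. In the second group 41.7% (5 of 12) had a promoter peak, beside 15.9% of all genes. In the lowest group 1 of 4 had one, beside 3.91%. These counts are small and include the members, and no test was run on them. The signals of the 18 ran from 12.3 to 24.8 normalised tags, a ratio of 2.02, with a median of 17.1, and 14 of the 18 were above the median of all peaks. The centres lay 37 to 504 bp from the nearest TSS, and 3 of the 18 peaks were shared with another protein-coding gene.

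Among the MiT/TFE factors, 0 of 4 genes had a promoter peak, which adds Tfec to the 3 members. Of the 5 genes of the mTORC1 core, the 2 with a peak were Mtor and Rptor. Rictor, which defines the sister complex mTORC2, was the 1 of 4 mTORC2 genes with a peak, and at 24.8 normalised tags (18.5 to 32.6) it had the highest signal of the list. Of the 4 Rag GTPase genes, Rraga and Rragc had a peak, and their paralogs did not. Ragulator had peaks at Lamtor3 (20.5) and Lamtor5 (13.5), 2 of 5 genes, so that Lamtor1 was not the only subunit gene without one. In the folliculin complex Flcn alone of 3 genes had a peak. GATOR1, which inhibits the Rag GTPases, had 0 of 3, while GATOR2, which opposes GATOR1, had 3 of 5, which were Mios (14.0), Wdr24 (17.3) and Sec13 (18.3). The KICSTOR subunit gene Itfg2 (23.4) was 1 of 3. Of the amino acid sensors and transporters 1 of 10 had a peak, Slc3a2 (15.7), the heavy chain of a leucine transporter. In the group of the TSC complex and Rheb, 3 of 6 had one, which were Tsc1 (19.7), Tsc2 (16.9) and Rheb (13.0). The TTT complex, which helps assemble the kinase, had 1 of 3, Tti2 (21.4). Of the mTORC1 substrates 1 of 6 had a peak, Rps6kb1 (12.3), the gene of S6 kinase, and this peak was shared with Tubd1. Tsc1 and Tsc2, which encode binding partners, and Rheb, which encodes their target, had promoter peaks. Their intervals overlapped (14.1 to 26.7 for Tsc1, 8.57 to 18.9 for Rheb). The other genes of this group had none, among them Tbc1d7, whose nearest peak was 9.95 kb away. The Tsc2 peak was nearer to the Nthl1 TSS and cannot be assigned to Tsc2 from its position. The Rragc and Flcn peaks were likewise nearer to the TSS of an antisense gene. The lowest signal, of Rps6kb1 (8.0 to 18.1), and the highest, of Rictor, had intervals that did not overlap. These 2 were picked as the extremes of the list, so no difference between the genes is read from this.

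**Figure D5:**
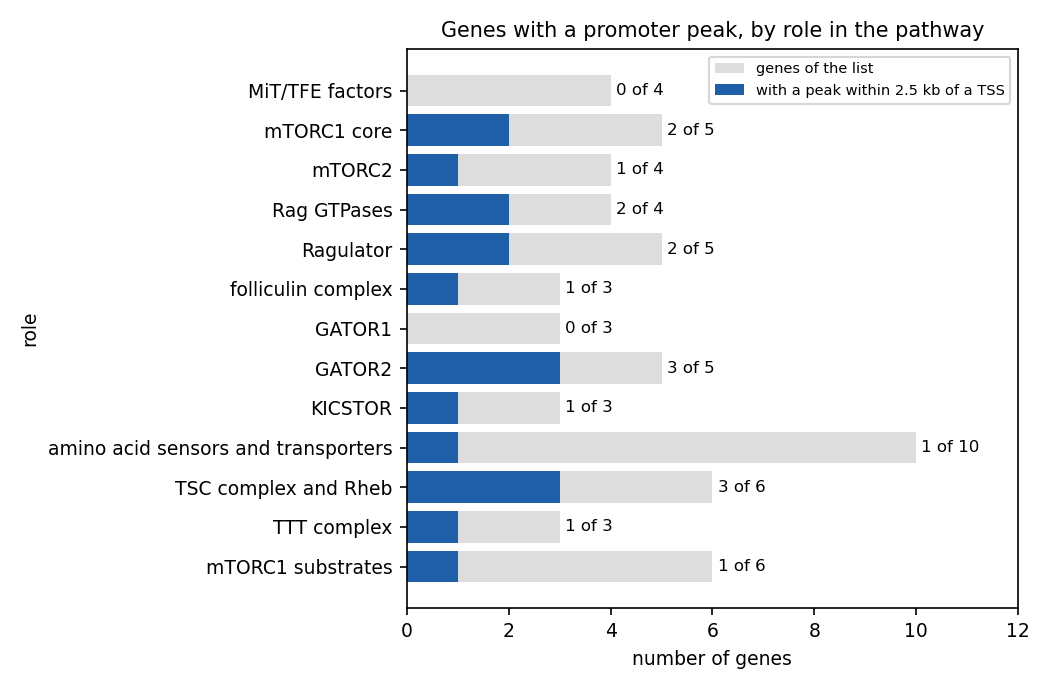
Number of genes of the 61-gene list in each role (grey bars) and number with a methylated Pontin promoter peak (blue bars). The MiT/TFE factors and GATOR1 have 0, and GATOR2 has the highest share with 3 of 5, beside 17.1% of all protein-coding genes.

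Promoter peaks at marker genes could not check the labelled cell type. They were present at 3 of 10 fibroblast genes (Fn1, Vim and Thy1) and absent from Col1a1, Col1a2, Col3a1, Pdgfra, Pdgfrb, Postn and Twist1, and were at 0 of 5 epithelial and 0 of 5 blood genes. With so few genes these counts cannot be told from the 17.1% of all genes, and a peak does not measure expression. The library had 20765512 tags, of which 0.65% lay in peaks.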

How the data were processed

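Paired-end ChIP-seq reads were aligned by the authors to GRCm38/mm10 with Bowtie2 (version not given in the sources used here). Methylated Pontin peaks of 481 bp were called with HOMER 4.7.2 against input, in 1 library with no pooling. The paper calls this the control input, and which of the 2 input libraries it was is not stated. The fold over input therefore need not be against the input of the starved cells. The signal analysed is the deposited tag count per 10000000 tags, the score is the authors' own peak score, and the fold over input and over the 10 kb around a peak are ratios from the authors. A further 6 columns of per-peak values were not used. They hold a focus ratio, tags scaled to the control, control tags that no name ties to a library, p-values and a clonal fold change.

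Peak centres were assigned to TSSs of GENCODE vM21 with Python 3.11.15, NumPy 2.4.6, pandas 2.3.3, SciPy 1.17.1 and pysam 0.24.0, and figures were drawn with matplotlib 3.10.9. Tags were recovered from the rounded signal and the library total for the intervals. They were not whole numbers, so the intervals are approximate. Distances and motif searches were tested on simulated data. All 10 members and each gene of the wider list with a promoter peak are named, and the others are given by count, apart from Tfec and Tbc1d7. Members, lists and motifs were chosen with earlier results of these data known. The sequence under a further peak is not reported here. Alternatives covered distance, TSS choice, fold and score.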

Additional observations from a re-analysis of the deposited data

How the results depend on the processing

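The count of 6 members with a promoter peak was the same with a limit of 1 kb or 5 kb, with TSSs of protein-coding transcripts, with the most upstream TSS, with distances from the peak edge and among the peaks above the median score. Among peaks at least 8-fold over input it was 4, since Rptor and Tsc2 dropped out. These 4 included Mtor, whose ratio cannot be read as a measured enrichment, and Rragc (8.22) and Flcn (8.41), which were just above the limit. At 8-fold the wider list fell from 18 to 11 genes and the share of all protein-coding genes from 17.1% to 9.93%, and above the median score that share was 9.53%. These limits keep fewer peaks by construction. The median signal of the member promoter peaks stayed between 16.8 and 16.9. Ranked by fold over input, the second Mitf peak moved from above 12.4% to above 71.4% of all peaks, on an input of only 0.77 normalised tags. The rank of Mtor is not given since its input was at the lowest step. Ranked by score, the first Mitf peak moved from 22.5% to 0.0%, in a tie of 139 peaks. No paired analysis was possible because each group had 1 library, and for the same reason no replicate could be left out. Depth limits the single values, since 22.4 to 40.5 tags lay behind each peak of the set.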
